A study of Mus musculus with 20 samples.

Results

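The genes described here are 38 expressed long intergenic non-coding RNA (lincRNA) genes of cultured mouse motoneurons. They are the rows that the deposited tables type as lincRNA and that reached a mean of 5 FPKM over all 20 libraries, where FPKM is a fragment number normalised to exon length and to the mapped fragments of the library. Of 39174 gene rows, 1795 were typed as lincRNA, 816 of these were above 0 in any library, and 47 reached the threshold. Left out by name were the rRNA-like Gm26924 and the nuclear or imprinted lncRNAs Malat1, Neat1, Meg3, Rian, Mirg, Miat and Snhg11, and genes on chromosomes X and Y were left out too, 9 rows in all. Just inside the threshold lay Pvt1 with a mean of 5.39 FPKM and 1300002E11Rik with 5.07, and just outside it Gm26930 with 4.88 and C030037D09Rik with 4.86. The members were thus chosen by their measured mean FPKM over all libraries, and by no difference between groups. A gene could therefore enter through its high group alone. The mean of both compartments reached 5 FPKM for 28 members. The somatodendritic mean alone did so for 5 and the axonal mean alone for 5. In each of the 4 group means 16 of the 38 reached it. The counts over members and the differences of single members given below are descriptions for that reason, also where a p-value is printed.

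LincRNAs are transcribed by RNA polymerase II like messenger RNAs, usually spliced and polyadenylated, but they carry no long reading frame. Many stay in the nucleus, where they act on chromatin or on splicing factors, and others serve as host transcripts from which microRNAs (miRNAs) or small nucleolar RNAs (snoRNAs) are cut. TDP-43, encoded by Tardbp and called Tdp-43 in mouse, is an RNA-binding protein that favours stretches of alternating U and G, and its loss from the nucleus is a hallmark of amyotrophic lateral sclerosis.

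Motoneurons from the spinal cord of CD-1 mouse embryos were grown for a week in microfluidic chambers, in which axons cross microchannels into a compartment of their own. All cultures had been transduced with lentivirus: an empty expression vector in the controls and a vector for a short hairpin RNA against Tdp-43 in the knockdown cultures. Total RNA of the somatodendritic and the axonal side was amplified and sequenced separately, which gave 4 axonal control, 4 somatodendritic control, 6 axonal knockdown and 6 somatodendritic knockdown libraries. The labels do not tie a library to a culture or an animal, so p-values below measure the spread between these libraries, which may be technical. Of the motoneuron genes checked, Mnx1, Chat and Isl2 were listed at 0 in all libraries and the summed level of the 6 genes matched of 7 listed was at most 8.90 FPKM, whereas 3 genes of inhibitory neurons (Gad1, Gad2, Slc32a1) summed to 92.3 to 115 FPKM in the somatodendritic controls. Tardbp lay at 30.8, 19, 29.6 and 29.9 FPKM in the somatodendritic controls and between 0 and 8.54 in the somatodendritic knockdown libraries. It ranged from 13.4 to 32.3 FPKM in the axonal controls and from 1.21 to 33.2 in the axonal knockdown libraries, where the libraries labelled knockdown replicates 1 and 5, at 33.2 and 14 FPKM, were not below all controls. The knockdown difference of Tardbp came to -3.06 ± 0.57 in cell bodies, which passed, and to -1.71 ± 0.63 in axons, which did not (limma, adjusted p = 0.0228 and 0.427).

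Sorted by what GENCODE M21 places at their positions, the members fell into a few kinds. Of the 38, 32 matched that annotation by gene ID, 1 (Rmst) by symbol and 5 by neither. The matched entries were 25 lincRNAs, 3 processed transcripts, 2 antisense transcripts and 3 genes that the newer annotation calls protein-coding. These 3 are 2810011L19Rik (Tunar), a neural transcript with a short reading frame, 1500011K16Rik (Mtln), which encodes the mitochondrial micropeptide mitoregulin, and 6330403K07Rik. There were 8 members with a miRNA gene on their own strand and 3 with snoRNA genes (Snhg5, Snhg6, Snhg12), and the loci of 14 members overlapped a protein-coding gene.

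The miRNA hosts stand out because 3 of the 8 contain the separate loci for the same brain miRNA, miR-9. Gm3764 (GRCm38, chr3:88206813-88229959) spans Mir9-1, C130071C03Rik (chr13:83721381-83741308) spans Mir9-2 and AI854517, now Mir9-3hg (chr7:79500026-79534403), spans Mir9-3. Gm26871 (chr3:118430324-118530022) spans Mir137, Rmst (chr10:92071037-92165170) spans Mir135a-2 and Mir1251, H19 (chr7:142575529-142578143) spans Mir675, E530001K10Rik (chr2:94251879-94264758) spans Mir670 and A930011O12Rik (chr14:64588115-64593959) spans Mir124a-1 and Mir3078. Mature sequences from RefSeq (GRCm38.p6) were found for 10 of the 13 miRNA genes placed within these loci; shown 5′ to 3′ are those best known from neurons or from the named hosts, with the seed, bases 2 to 8, in capitals. The 2 arms of Mir9 are identical in all 3 copies, and no seed was shared between the different miRNAs.
mmu-miR-9-5p: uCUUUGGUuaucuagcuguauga
mmu-miR-9-3p: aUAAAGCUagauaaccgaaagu
mmu-miR-137-3p: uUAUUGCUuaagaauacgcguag
mmu-miR-135a-5p: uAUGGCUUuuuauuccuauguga
mmu-miR-675-3p: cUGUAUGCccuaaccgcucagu
mmu-miR-670-5p: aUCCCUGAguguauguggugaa
The rows of the miRNA hairpins found in the tables, Mir9-2, Mir9-3, Mir124a-1, Mir137, Mir135a-2, Mir675 and Mir670 among them, were listed at 0 FPKM in all 20 libraries, so the host level is the only measure of these loci here.

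Stretches of alternating T and G were searched because they are the sequence TDP-43 favours. A string of 12 bases made of TG in tandem, read on the transcript's own strand only, occurred in the longest GENCODE M21 transcript of 4 of the 33 members that matched. That is 12%, against 4.45% of all 5936 lincRNA genes of the annotation, whose transcripts were shorter (median 991 bases against 2099 for the members). All 4 were among the 17 members of 2099 bases or more, a share of 23.5%, beside 13.7% of the 1219 lincRNA genes of the annotation at that length. The difference was not tested. The 4 runs are shown with the alternating bases in capitals and 15 flanking bases on either side, from the GENCODE M21 transcripts.
1700020I14Rik: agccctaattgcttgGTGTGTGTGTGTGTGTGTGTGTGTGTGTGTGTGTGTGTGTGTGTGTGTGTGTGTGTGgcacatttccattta
A930011O12Rik: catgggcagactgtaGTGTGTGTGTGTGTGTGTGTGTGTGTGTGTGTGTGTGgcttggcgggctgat
1300002E11Rik: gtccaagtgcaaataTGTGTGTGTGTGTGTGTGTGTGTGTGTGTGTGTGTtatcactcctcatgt
1810058I24Rik: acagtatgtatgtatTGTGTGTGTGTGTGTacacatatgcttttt
The longest run, 57 bases, lies in 1700020I14Rik, and those of A930011O12Rik, 1300002E11Rik and 1810058I24Rik measure 37, 35 and 15 bases.

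Gm26870 (chr9:3000282-3038313) is a tandem repeat. The 3 GENCODE transcripts of this gene repeat with a period of 234 bases, and in the most regular of them 95.9% of the bases equal the base 234 positions further on. The first unit of that transcript is shown with the recurring string GAAAAA in capitals; 35.0% of its bases are G or C, and its length and base content are those of mouse major satellite, the repeat of pericentromeric heterochromatin.
Gm26870 unit: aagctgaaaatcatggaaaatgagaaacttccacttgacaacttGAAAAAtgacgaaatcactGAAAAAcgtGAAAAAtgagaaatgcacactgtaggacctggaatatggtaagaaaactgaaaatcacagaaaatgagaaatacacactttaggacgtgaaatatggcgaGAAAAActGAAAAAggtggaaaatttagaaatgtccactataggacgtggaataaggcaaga
Fragments of such a repeat can be assigned to many near-identical places, so the level of Gm26870 is uncertain as a level of this gene.

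The libraries differed in depth, and the deposited confidence limits of most members were wide. Relative depth, read from 297 genes whose confidence limits give whole fragment numbers, ranged from 0.612 to 1 in the somatodendritic controls and from 0.530 to 0.676 in the axonal controls. It ranged from 0.144 to 0.698 in the somatodendritic and from 0.104 to 0.762 in the axonal knockdown libraries, and axonal knockdown replicate 5 and somatodendritic knockdown replicates 5 and 6 lay below 0.3. Expressed as the squared ratio of a value to its SD, which would be the fragment number if counting were the only error, the precision had a median of 1.61 over the members. It reached a median of 10 in 6 members, led by 1700020I14Rik with 29.3, and was 1 or less in 16. Among those 16 were Gm26871 (0.175), Gm14230 (0.185), Snhg12 (0.294), AI854517 (0.307), A330102I10Rik (0.385) and Gm2694 (0.453), whose differences are given below. The members called below had medians of 6.60 (Gm26751), 4.50 (Gm12371), 2.34 (Gm26870) and 2.07 (Rmst). Only 1 member gave whole numbers in all libraries, so these are measures of precision and not fragment numbers, which are unknown for the other members. Of the 760 member values, 99 (13%) were at 0, by which is meant at most 0.001 FPKM. The axonal knockdown replicate 5 alone had 20 members at 0, and 10 members were above 0 in all 20 libraries. A member at 0 was not detectable at this depth, which is not the same as absent.

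**Figure D1:**
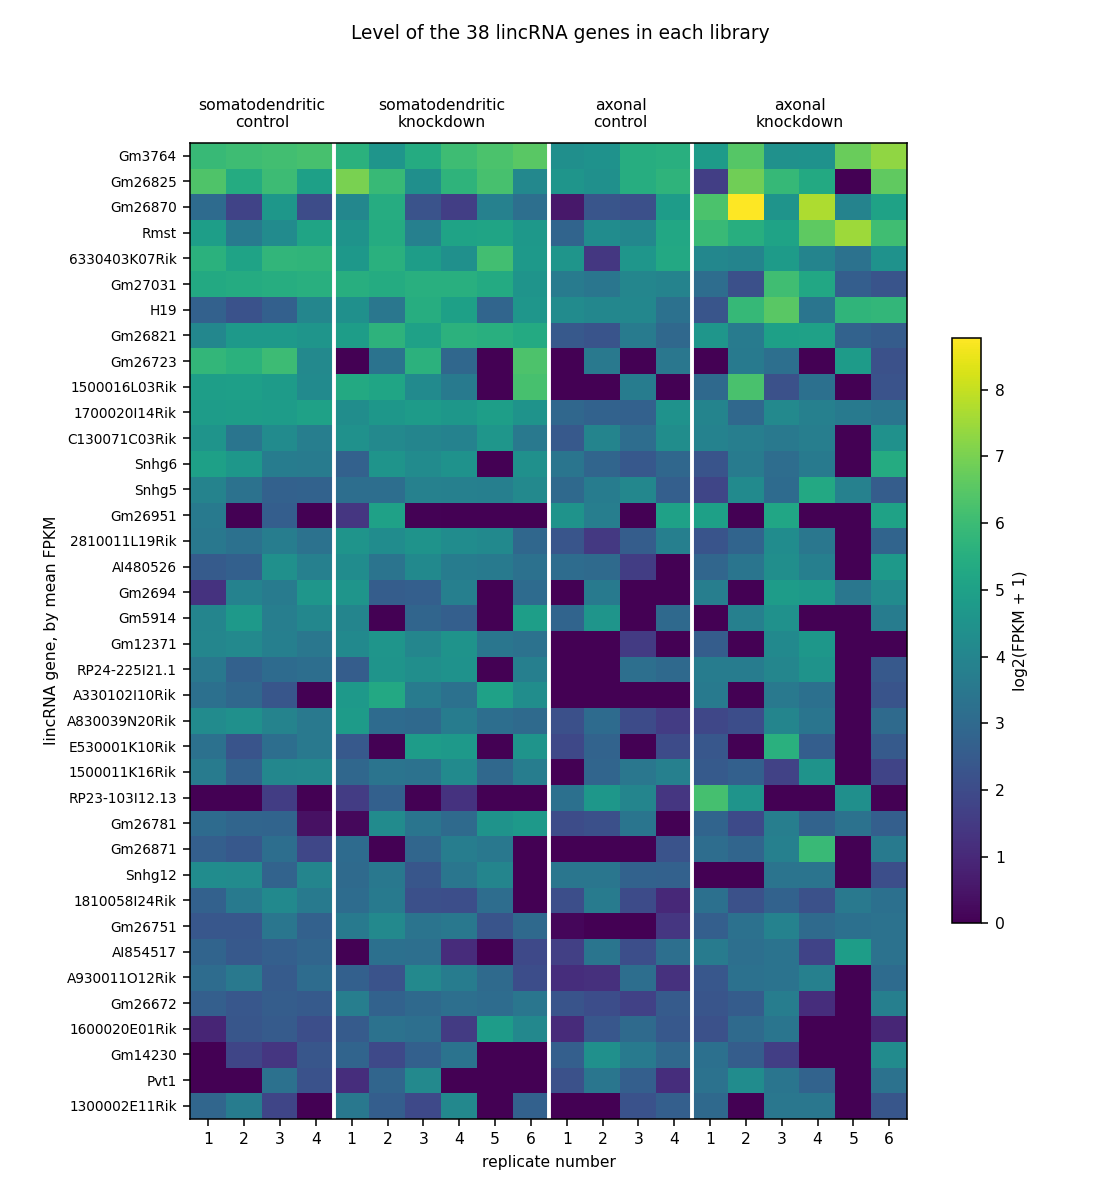
Level of the 38 lincRNA genes (rows, ordered by mean FPKM) in each of the 20 libraries (columns, by group and replicate number), as log2(FPKM + 1) of the deposited values. Dark cells are values near 0. Axonal knockdown replicate 5 had 20 members at 0 and somatodendritic knockdown replicate 5 had 11. The axonal controls had 6 to 9 each.

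The most abundant member by mean over all libraries, and in the somatodendritic controls, was Gm3764, the Mir9-1 host. It measured 59.0, 65.7, 68.4 and 73.1 FPKM in the somatodendritic controls and 19.7, 21, 43 and 45.2 in the axonal controls. Its knockdown libraries ranged from 22.7 to 92.0 FPKM (median 56.1) in the somatodendritic and from 20.6 to 159 (median 56.9) in the axonal compartment. The controls of the compartments did not overlap as deposited but did after scaling, and the knockdown libraries overlapped in both. The scaled axonal minus somatodendritic difference in the controls was -0.55 ± 0.61 (limma, adjusted p = 0.746). Next came Gm26825, on chr5:5781530-5783636 over the processed pseudogene Gm15459, with 30.4 to 81.3 FPKM in the somatodendritic and 20.0 to 51.1 in the axonal controls. The kit is not stated to keep strand, so the reads of opposite strands cannot be told apart in any overlap described below.

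The steadiest member was Gm27031 in the somatodendritic controls, with 39.6, 41.3, 43.6 and 45.5 FPKM (42.5 ± 2.56, SD, n = 4), followed by 1700020I14Rik with 28.0, 28.4, 27.9 and 31.8 (29.0 ± 1.85, SD, n = 4). Over all members, the median coefficient of variation was 41.8% in the somatodendritic controls, 67.9% in the somatodendritic knockdown, 77.9% in the axonal controls and 89.2% in the axonal knockdown libraries. The 8026 genes in the same range of mean FPKM had medians of 28.0%, 42.9%, 49.4% and 67.0%. The members' median was thus above that of these genes in each of the 4 groups. The genes were chosen by the range of mean FPKM alone and were not matched on precision. A trait of lincRNAs cannot be told apart from low precision here. The smallest and the largest variation fell in the same groups for both sets.

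Sums over the 38 members were 553 to 662 FPKM in the somatodendritic and 222 to 413 in the axonal controls, against 604 to 694 and 501 to 1051 in the knockdown libraries. The controls did not overlap as deposited, but did after scaling, with 492 to 617 and 317 to 542 scaled FPKM. The 7 nuclear lncRNAs that the rule left out, led by Malat1 and Rian, had sums of 1385 to 1866 FPKM in the somatodendritic and 655 to 1019 in the axonal controls, 1482 to 2042 in the somatodendritic and 1448 to 3224 in the axonal knockdown libraries. Markers of astrocytes and radial glia (6 genes) summed to 270 to 339 and 190 to 334 FPKM in the somatodendritic control and knockdown libraries, and to 68.4 to 445 and 23.8 to 540 in the axonal ones. Markers of dividing cells (3 genes) summed to 18.1 to 36.3 and 0.955 to 27.9 FPKM in the somatodendritic, and to 36.8 to 58.3 and 8.65 to 117 in the axonal control and knockdown libraries. The part of nuclear RNA or of these cells in the members' values was not tested. Scaling matters here, because deposited FPKM of most genes were lower in the axonal controls: the median axonal minus somatodendritic difference of all genes was -0.47 log2 units on the deposited values and -0.03 after scaling, and that of the members -1.23 and -0.74. All differences below are on the log2 scale of scaled FPKM plus a pseudocount of 1, which understates the change of low genes, and the median of each comparison is given beside them. Fewer cells or axons and less RNA in each cannot be told apart in such bulk samples.

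The comparison of the compartments in the control cultures asked which lincRNAs were present in axons at another level than in cell bodies. Of the 38 members, 2 fell in the axonal libraries (5.26%) and 0 rose at an adjusted p under 0.05, where 2.10% of the 14062 genes tested passed in either direction (limma, p-values adjusted by Benjamini and Hochberg's method across the whole table), 0.661% lower and 1.44% higher. At an unadjusted p under 0.05 there were 9 lower and 2 higher members, 23.7% and 5.26%, against 7.31% and 8.09% of all genes. On the deposited FPKM they were 11 and 2, and the share higher among all genes that passed so was 16.8% in place of 52.5%. In direction alone, 25 members were lower and 13 higher, 34.2% higher beside 48.3% of all genes. After scaling, the groups did not overlap for 4 lower members (Gm26751, Gm12371, Gm27031 and Gm26723) and 2 higher ones, 10.5% and 5.26%, against 7.65% and 8.08%, and the members' median was -0.74 beside -0.03 for all genes. Of the 145 other lincRNA rows tested, 1.38% passed the adjusted threshold. Without axonal control replicate 1 the 11 members at an unadjusted p under 0.05 became 7, and no member was called without axonal control replicate 1 or 2 or somatodendritic control replicate 2 or 3 (0 of 38).

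Gm26751 (chr14:55864311-55874735), which lies antisense to Nynrin, fell in the control axons. It was listed at 4.20, 4.21, 9.97 and 5.63 FPKM in the somatodendritic and at 0.113, 0, 0 and 1.62 in the axonal controls. The groups did not overlap, and the difference was -2.19 ± 0.49 (SE; limma, adjusted p = 0.0197). The call was lost without any of axonal control replicates 1, 2 and 3 or somatodendritic control replicates 2 and 3, with adjusted p from 0.0522 to 0.095, and with a pseudocount of 5 (0.0649) or the replicate block (0.0799). It held in 24 of 31 alternative settings. All 4245 exonic bases of Gm26751 are also exonic in Nynrin, which measured 2.79 to 3.94 FPKM in the somatodendritic and 0.881 to 4.77 in the axonal controls and overlapped between them.

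Gm12371 (chr4:36952966-36988032), an intergenic transcript 1218 bases from Lingo2, also fell. It measured 15.3, 16.6, 12.7 and 10.1 FPKM in the somatodendritic controls, and 0, 0, 1.88 and 0 in the axonal ones. The groups were far apart, with a difference of -3.27 ± 0.84 (limma, adjusted p = 0.0402), but 11 of the 20 libraries ended the call when left out, among them axonal control replicates 1, 2 and 4, all 4 somatodendritic controls and somatodendritic knockdown replicates 1 to 4 (adjusted p 0.0521 to 0.124). It was also lost with a pseudocount of 0.1, with no filter and with the replicate block (0.0849, 0.0721 and 0.054), and it held in 17 of 31 alternative settings. Control and knockdown means of Gm12371 were 13.7 and 15.9 FPKM in the somatodendritic and 0.471 and 7.64 in the axonal compartment. The gene could thus enter the set through the compartment where it was high.

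Among the members with the lowest unadjusted p that did not pass, 1700020I14Rik was at 28.0, 28.4, 27.9 and 31.8 FPKM in the somatodendritic and at 6.66, 5.78, 5.69 and 21.5 in the axonal controls. The groups did not overlap as deposited but did after scaling, and the difference was -1.14 ± 0.35 (limma, adjusted p = 0.0961). Without axonal control replicate 4, the high library, the adjusted p was 0.0101. 1500016L03Rik (Lhx1os, chr11:84525660-84535831), 124 bases from the homeobox gene Lhx1 that marks interneurons and a motor column, was at 29.6, 30.3, 27.4 and 17.5 FPKM in the somatodendritic controls and at 0, 0, 11.8 and 0 in the axonal ones, with a difference of -3.58 ± 1.18 (limma, adjusted p = 0.124).

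Among the members higher in the control axons, RP23-103I12.13, Gm14230 and H19 had the lowest p, and none passed. RP23-103I12.13 and Gm14230 reached 5 FPKM in the axonal mean only. Their somatodendritic control and knockdown means were 0.510 and 1.48 FPKM for the former and 2.06 and 3.90 for the latter. Their differences are thus descriptions. RP23-103I12.13 (chr14:69694475-69695834) was at 0, 0, 2.04 and 0 FPKM in the somatodendritic and at 8.47, 24.1, 15.1 and 1.60 in the axonal controls, with a difference of 3.37 ± 1.15 (limma, adjusted p = 0.134). Gm14230 (chr2:156833049-156839892), 114 bases from Tgif2, was at 0, 2.59, 1.59 and 4.07 FPKM and at 5.27, 20.1, 10.9 and 6.74 respectively (2.50 ± 0.88, adjusted p = 0.147). H19, the imprinted and maternally expressed transcript, was at 5.54, 3.67, 5.46 and 15.2 FPKM in the somatodendritic and at 17.8, 15.6, 15.9 and 8.58 in the axonal controls (1.54 ± 0.74, adjusted p = 0.325). RP23-103I12.13 and Gm14230 did not overlap between the groups after scaling, whereas somatodendritic control replicate 4 placed H19 within the axonal range.

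RP23-103I12.13 lies within the locus of Loxl2, a collagen-crosslinking enzyme, and its values went with those of that gene. The 6 libraries in which the lincRNA reached 8 FPKM, all axonal, had 11 to 100.1 FPKM of Loxl2, and the other 14 libraries had at most 6.31. Loxl2 itself rose in the axonal libraries, by 3.77 ± 0.80 in the controls and 3.20 ± 0.65 in the knockdown cultures (limma, adjusted p = 0.0127 and 0.00696). Of 6 fibroblast and meningeal markers (Col1a1, Col1a2, Col3a1, Dcn, Lum, Pdgfra), 4 were tested in the controls and 1 rose, where 1.44% of all genes did. The sum of the 6 ran from 9.51 to 16.9 FPKM in the somatodendritic and from 16.7 to 58.8 in the axonal controls. The higher axonal sum was mostly Col1a1, with medians of 1.21 FPKM in the somatodendritic and 28.6 in the axonal controls. Pdgfra was lower there, with medians of 9.50 and 3.16, Dcn had medians of 0.632 and 0.572, and Lum was listed at 0 in all axonal controls. Before plating, the meninges were taken off and motoneurons were enriched on dishes coated with an antibody to p75. The part of such cells in these values was not tested.

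**Figure D2:**
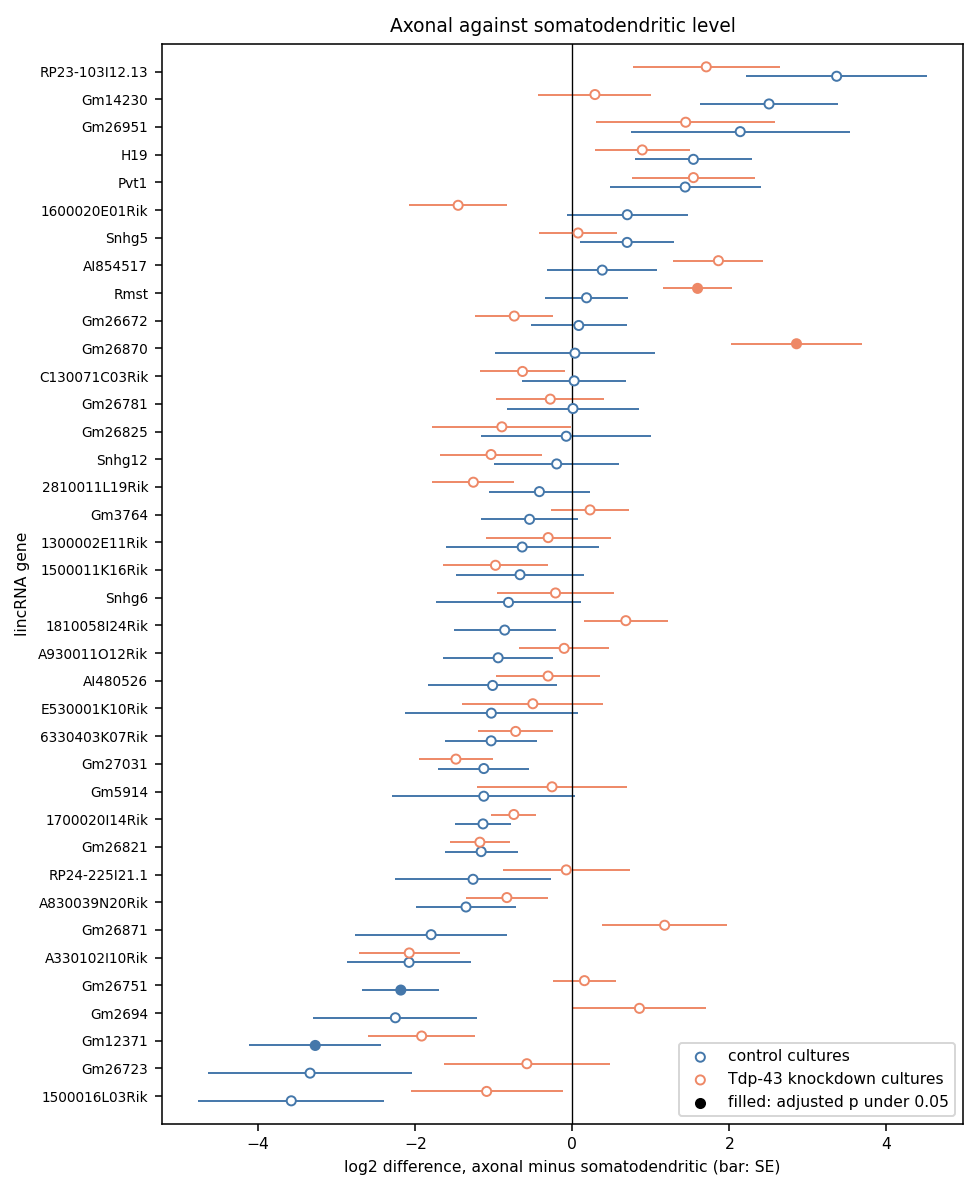
Axonal minus somatodendritic difference of each member in log2 units of scaled FPKM plus 1 (points, bars are the SE of the limma fit), in control (blue) and knockdown cultures (orange), ordered by the control difference; filled points have an adjusted p under 0.05. Gm26751 and Gm12371 are filled in the controls, Rmst and Gm26870 in the knockdown cultures.

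The same comparison was made in the knockdown cultures. Here 2 of 38 rose in the axonal libraries and 0 fell (5.26% in all), where 5.35% of all genes passed, 2.93% higher and 2.42% lower, a share like that of the background. Those calls depend on the scaling: with quantile normalization 1 was higher and 1 lower, and on the deposited FPKM 0 were higher and 3 lower (A330102I10Rik, Gm26821 and Gm27031), where Rmst and Gm26870 had adjusted p of 0.0547 and 0.0507 (limma). At an unadjusted p under 0.05, 7 were lower and 3 higher, 18.4% and 7.89%, against 11.1% and 9.52% of all genes, and of all genes that passed so 46.1% were higher, or 30.1% on the deposited FPKM. There were 14 higher members, 36.8% beside 46.5%, and 1 member, 1700020I14Rik, was lower without overlap after scaling, against 2.46% of all genes. The members' median was -0.29, beside -0.05 for all genes. Without axonal knockdown replicate 3 or 4 the 2 calls became 6, without somatodendritic knockdown replicate 2 they became 3, and without axonal knockdown replicate 6 or somatodendritic knockdown replicate 1, 4, 5 or 6 they became 0.

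Rmst, a neuronal lncRNA that acts with the transcription factor SOX2 during neurogenesis, rose in the knockdown axons. Its levels were 13.2 to 41.4 FPKM (median 28.8) in the somatodendritic and 33.4 to 177 (median 64.0) in the axonal knockdown libraries. The ranges overlapped, and the difference was 1.59 ± 0.44 (limma, adjusted p = 0.0358). Leaving out 7 single libraries ended the call, namely axonal knockdown replicates 5 and 6 and somatodendritic knockdown replicates 1, 3, 4, 5 and 6 (adjusted p 0.0515 to 0.0823), and the call held in 17 of 31 alternative settings. Without the 3 libraries of relative depth under 0.3 the difference was 1.36 (adjusted p = 0.15), and without the 5 under 0.5 it was 1.10 (adjusted p = 0.286).

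Gm26870, the satellite-like repeat shown above, rose as well. It measured 2.10 to 41.8 FPKM (median 10.8) in the somatodendritic and 14.2 to 437 (median 55.0) in the axonal knockdown libraries. Replicates 1, 2 and 4 of the axonal libraries were high, at 78.0, 437 and 205 FPKM, and the other three lay between 14.2 and 31.9, within the somatodendritic range. The difference was 2.85 ± 0.84 (limma, adjusted p = 0.0472), a call that 15 of the 20 libraries ended when left out (adjusted p 0.0508 to 0.11), that held in 7 of 31 alternative settings, and that without the 5 libraries of relative depth under 0.5 gave 2.01 (adjusted p = 0.288). The libraries that decide it include axonal knockdown replicates 1, 2, 4 and 6, axonal control replicates 2 and 3, all 4 somatodendritic controls and somatodendritic knockdown replicates 1, 3, 4, 5 and 6.

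The predicted genes annotated on the opposite strand of the same repeat (Gm10717 to Gm10722, Gm11168 and Gm17535 among them) were at high level in the same axonal libraries. Their sum was 165, 932, 91.3, 452, 19.5 and 72.7 FPKM in axonal knockdown replicates 1 to 6 and 4.68 to 63.6 in the somatodendritic knockdown libraries. Of the 9 such genes 8 could be tested, all were higher in the knockdown axons, beside 46.5% of all genes, and 3 rose, where 2.93% of all genes did (Gm10719, Gm11168 and Gm10717; limma, adjusted p = 0.0132, 0.0197 and 0.0313). Since strand and copy cannot be told apart in this repeat, these rows and Gm26870 are not separate measurements.

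AI854517, the Mir9-3 host, came next, with 0 to 8.47 FPKM (median 1.99) in the somatodendritic and 2.37 to 28.9 (median 9.03) in the axonal knockdown libraries. The difference was 1.86 ± 0.57 (limma, adjusted p = 0.0608). Its precision had a median of 0.307 and was 1 or less in 19 of the 20 libraries. AI854517 could enter the set through the axonal knockdown group, where its mean was 11.5 FPKM and in the other groups at most 5.83. On the other side, A330102I10Rik (chr13:29014399-29040336), whose nearest coding gene is Sox4, was at 8.74 to 38.7 FPKM (median 22.1) in the somatodendritic and 0 to 10.9 (median 6.14) in the axonal knockdown libraries. The difference was -2.08 ± 0.64 (limma, adjusted p = 0.0616). This gene could enter the set through its somatodendritic knockdown libraries, with a mean of 22.5 FPKM there and at most 5.65 in the other groups. Gm27031 was at 22.4 to 45.5 FPKM (median 42.7) and 3.39 to 67.4 (median 6.47), with -1.48 ± 0.47 and an adjusted p of 0.0684 by limma. Axonal knockdown replicates 3 and 4, at 67.4 and 37.4 FPKM, lay with the somatodendritic libraries for this gene, and without either of them the adjusted p was 0.00611 or 0.0121.

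**Figure D3:**
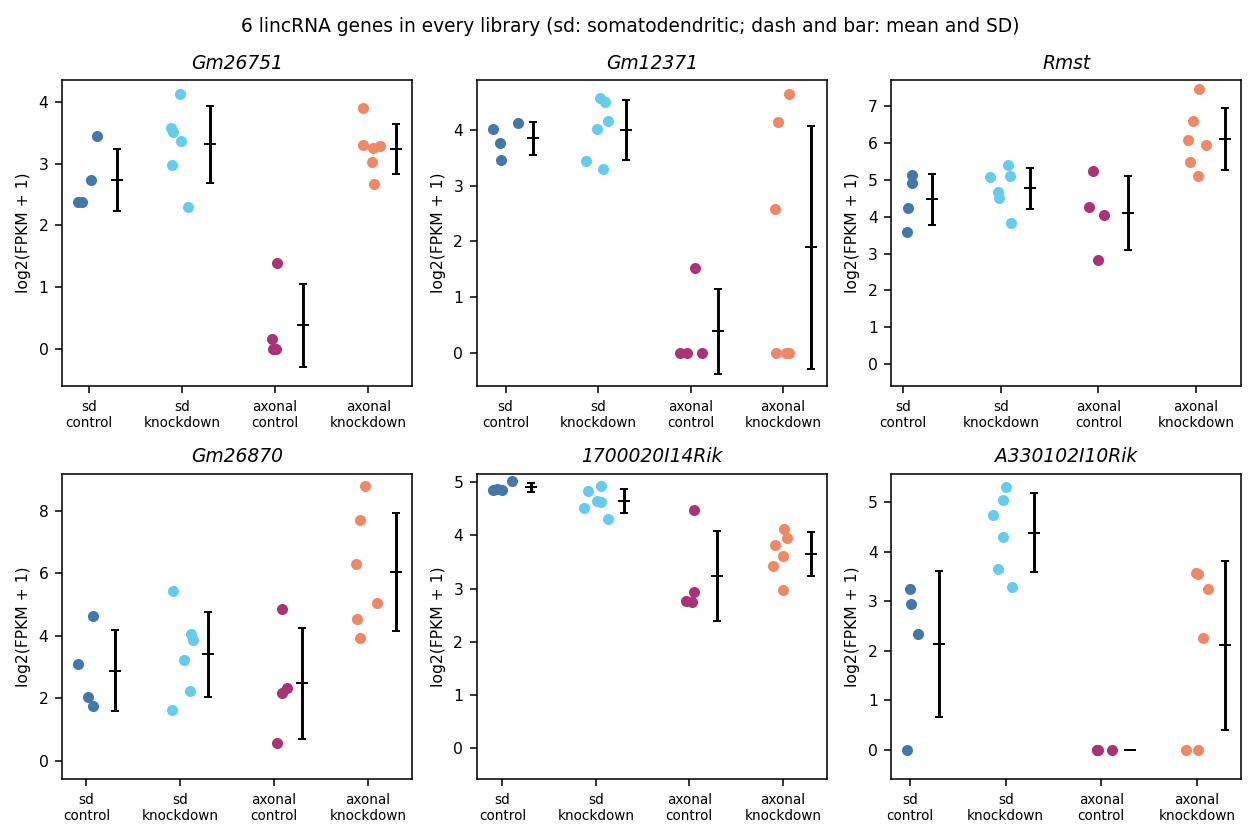
Level of 6 members in every library as log2(FPKM + 1) of the deposited values before scaling (points; the dash and bar beside them give the group mean and SD, n = 4 for controls and 6 for knockdown). Gm26751, Gm12371 and A330102I10Rik are near 0 in the axonal controls; Rmst and Gm26870 are highest in the axonal knockdown libraries, and 1700020I14Rik is lower in axons than in the somatodendritic compartment.

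Knockdown was then compared with control within each compartment. In the somatodendritic compartment 0 of 38 members passed the adjusted threshold, where 0.974% of 13762 genes did (limma). At an unadjusted p under 0.05 there were 8 members, 21.1% against 13.8% of all genes, 3 higher and 5 lower, 7.89% and 13.2% against 4.59% and 9.22%. On the deposited FPKM 4 members were higher and 0 lower at that threshold, and the share higher among all genes that passed it was 63% in place of 33.2%, or 45.3% with quantile normalization. Directions were mixed, with 16 higher and 22 lower, 42.1% higher beside 40.7%, and the median was -0.18 beside -0.13 for all genes. The 8 became 3 without somatodendritic control replicate 1 or 2, 4 without control replicate 3 or knockdown replicate 4, 5 without control replicate 4 or knockdown replicate 3, and 2 when all 20 libraries were fitted together.

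The highest estimate among the 3 higher members was that of A330102I10Rik, at 8.52, 6.65, 4.07 and 0 FPKM in the controls and 8.74 to 38.7 (median 22.1) in the knockdown libraries. The FPKM values did not overlap as deposited but did after scaling, and the difference was 2.07 ± 0.62 (limma, adjusted p = 0.139). A330102I10Rik had a mean of 22.5 FPKM in the somatodendritic knockdown libraries and at most 5.65 in the other groups. It could thus enter the set through the group in which it was higher. Gm26821 (chr7:18962415-18965173) was at 15.6, 25.5, 25.7 and 22.7 FPKM in the controls and at 28.7 to 49.5 (median 42.4) in the knockdown libraries, again without overlap as deposited and with overlap after scaling, a difference of 0.62 ± 0.22 (limma, adjusted p = 0.232). H19 was at 3.67 to 15.2 FPKM in the controls and 6.30 to 42.8 (median 21.9) in the knockdown libraries (1.20 ± 0.51, adjusted p = 0.31).

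Lower in the knockdown libraries was 1700020I14Rik, the transcript with the longest alternating run and the member of highest precision. It was at 27.9 to 31.8 FPKM in the controls and 18.7 to 29.4 (median 24) in the knockdown libraries, which overlapped as deposited and did not overlap after scaling. The difference was -0.46 ± 0.18 (limma, adjusted p = 0.281). With the factors of this comparison, computed over the somatodendritic libraries, it was the only member whose groups did not overlap (2.63% of members, against 5.49% of all genes). With factors computed over all 20 libraries Gm27031 did not overlap either, at 37.3 to 40.6 scaled FPKM in the controls and 19.9 to 36.6 in the knockdown libraries. 6330403K07Rik was at 33.4 to 53.9 and 20.0 to 68.9 FPKM (-0.69 ± 0.31, adjusted p = 0.337) and 1810058I24Rik, the other member with a run and a low p, at 5.59 to 17 and 0 to 11.1 FPKM (-1.36 ± 0.60, adjusted p = 0.339). Gm26723 and Gm5914, lower with estimates of -2.49 and -1.88, complete the 8, so the other members with a run, A930011O12Rik and 1300002E11Rik, were not among them. At an unadjusted p under 0.05, 9.22% of all genes were lower, and on the deposited FPKM 0 members were. Whether members with a run fell more often than others was not tested.

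In the axonal compartment 0 of 38 members passed either, where 0.401% of 13958 genes did (limma). At an unadjusted p under 0.05 there were 8 members, 6 higher and 2 lower, 15.8% and 5.26%, against 2.14% and 6.46% of all genes. On the deposited FPKM they were 6 and 0, and the share higher among all genes that passed so was 72.8% in place of 24.9%. By direction, 21 members were higher and 17 lower, 55.3% higher beside 41.3% of all genes, and the median was 0.20 beside -0.17. Without axonal control replicate 1 the 8 became 5.

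Gm26751 was nearest to the threshold and had the only groups apart. Its axonal controls were at 0.113, 0, 0 and 1.62 FPKM and its axonal knockdown libraries at 5.36 to 14 (median 8.66). All 6 knockdown values exceeded all 4 control values, also after scaling, as for 0.451% of all genes in that direction and 2.47% in either, and the difference was 2.59 ± 0.57 (limma, adjusted p = 0.0758). It passed without axonal control replicate 4 (2.98, adjusted p = 0.0451), on the deposited FPKM (2.85, 0.0415), with array weights (2.67, 0.0183) and with all 20 libraries in the fit (2.72, 0.00123). It did not pass with quantile normalization (2.54, 0.101), a pseudocount of 0.1 (4.78, 0.17) or 5 (1.16, 0.101), no filter (2.59, 0.0786), a mean of at least 5 FPKM (2.59, 0.126), the replicate block (2.52, 0.355) or without the libraries of relative depth under 0.3 (2.57, 0.0821) or 0.5 (2.54, 0.266). Nynrin on the other strand was at 0.881 to 4.77 FPKM in the controls and 1.55 to 7.27 in the knockdown libraries, with a difference of 0.12 ± 0.57 (limma, adjusted p = 0.966).

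Gm26870 was at 0.492, 3.96, 3.46 and 27.7 FPKM in the axonal controls and 14.2 to 437 in the axonal knockdown libraries (3.14 ± 0.95, limma, adjusted p = 0.273). Rmst was at 6.08, 18.1, 15.7 and 37.2 FPKM in the controls and 33.4 to 177 in the knockdown libraries, with only axonal control replicate 4 inside the knockdown range (1.52 ± 0.54, adjusted p = 0.403). Gm26871, the Mir137 host, was at 0, 0, 0 and 3.74 FPKM against 0 to 61.2 (median 9.44; 2.42 ± 0.91, adjusted p = 0.449). Gm2694 (chr8:87472812-87525554), 202 bases from the synaptic organiser gene Cbln1, was at 0, 11.3, 0 and 0 FPKM against 0 to 27.9 (median 15), with an adjusted p of 0.499 by limma. A330102I10Rik was listed at 0 in all 4 axonal controls and reached 10.9 FPKM in the knockdown axons, above 0 in 4 of 6 libraries, so no fold is given.

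The lower members were Snhg12, a snoRNA host, and Gm14230. Snhg12 was at 9.88, 9.92, 5.82 and 5.61 FPKM in the axonal controls and at 0 to 9.39 (median 1.68) in the knockdown libraries (-1.98 ± 0.76, limma, adjusted p = 0.454). Gm14230 was at 5.27 to 20.1 FPKM in the controls and 0 to 18.0 (median 3.55) in the knockdown libraries (-1.84 ± 0.80, adjusted p = 0.542). In both, knockdown libraries at 0 lay beside others within the control range.

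**Figure D4:**
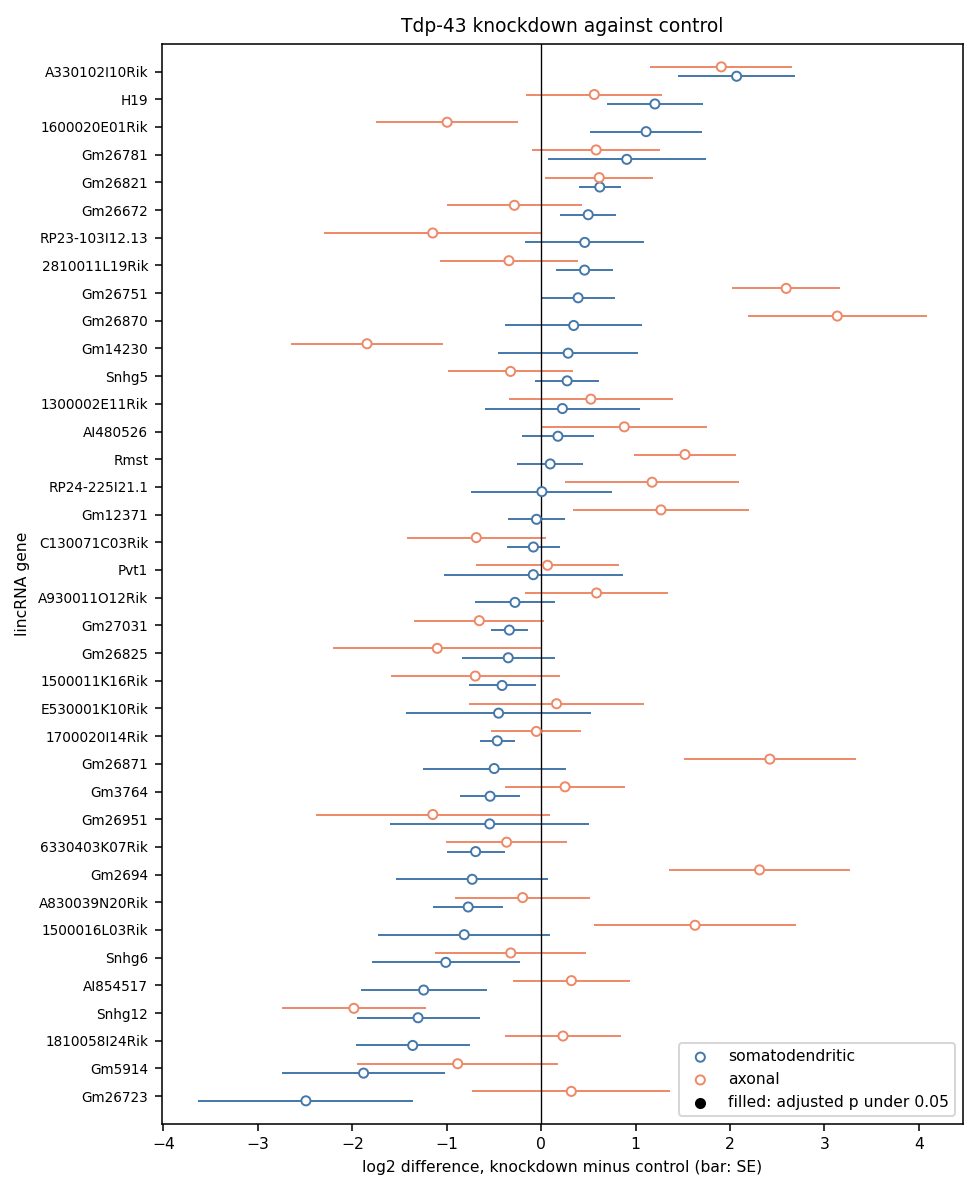
Knockdown minus control difference of each member in log2 units of scaled FPKM plus 1 (points, bars are the SE of the limma fit) in the somatodendritic (blue) and the axonal compartment (orange), ordered by the somatodendritic difference. No point is filled, since 0 members passed the adjusted threshold in either compartment.

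Whether the knockdown difference itself was unequal between the compartments was tested as an interaction. None of the 38 members passed (0 calls, limma), where 0.0711% of all genes did, and 5 had an unadjusted p under 0.05, 13.2% against 5.61%, 4 higher (2.75% of all genes) and 1 lower (2.86%). These were Gm26751 (2.34 ± 0.63, adjusted p = 0.412), Gm26871 (2.97 ± 1.25, 0.846), Gm2694 (3.11 ± 1.35, 0.854), Gm26870 (2.82 ± 1.32, 0.883) and, with the opposite sign, 1600020E01Rik (-2.15 ± 0.99, 0.878). The last, antisense to Pcbp1, was at 0.887 to 4.80 FPKM in the somatodendritic controls and 1.90 to 27.8 in the somatodendritic knockdown libraries, but at 1.10 to 7.13 and 0 to 9.68 in axons. By direction 23 members were higher, 60.5% beside 47.7%, and the median was 0.36 beside -0.04 for all genes. On the deposited FPKM 6 were higher and 0 lower at the unadjusted threshold, and the share higher among all genes that passed it was 80.3% in place of 49%. The 5 became 2 without axonal control replicate 1 or 3, somatodendritic control replicate 3 or axonal knockdown replicate 4, and 3 without axonal control replicate 2 or somatodendritic control replicate 1.

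By class, the 8 miRNA hosts summed to 113 to 162 FPKM in the somatodendritic and 54.1 to 126 in the axonal controls, 103 to 193 in the somatodendritic and 134 to 367 in the axonal knockdown libraries. The axonal knockdown libraries lay above all axonal controls as deposited but not after scaling, with 109 to 387 against 77.2 to 165 scaled FPKM. In the fit, 7 of the 8 were higher and 1 lower in the knockdown axons (median 0.44), where 41.3% of all genes were higher. In the knockdown cell bodies 2 of the 8 were higher (median -0.36), beside 40.7% of all genes. None passed in either comparison. Gm26871 and AI854517 had means of 16.6 and 11.5 FPKM in the axonal knockdown libraries. Their means in the other groups were at most 6.04 and 5.83. Both could thus enter the set through the group in which they were higher. Among the 3 hosts of Mir9, the axonal knockdown difference was 0.25 ± 0.64 for Gm3764, -0.69 ± 0.73 for C130071C03Rik and 0.32 ± 0.62 for AI854517 (limma, adjusted p = 0.93, 0.832 and 0.915).

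C130071C03Rik, among the 6 members of highest precision, was at 22.1, 9.55, 17.8 and 12.4 FPKM in the somatodendritic and 4.49, 14.5, 7.86 and 18.6 in the axonal controls, and the scaled difference was 0.02 ± 0.66 (limma, adjusted p = 0.997). Its somatodendritic knockdown libraries were at 10.7 to 23.2 FPKM (median 15.7; -0.08 ± 0.28, adjusted p = 0.932). In the knockdown cultures the axonal minus somatodendritic difference was -0.64 ± 0.54 (limma, adjusted p = 0.554). With these SEs the data leave room for differences of more than a log2 unit in axons.

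The 3 snoRNA hosts are spliced transcripts whose introns give rise to snoRNAs, guides of ribosomal RNA modification. Their sum was 23.3 to 63.3 FPKM in the somatodendritic and 17.4 to 28.0 in the axonal controls, 20.8 to 43.8 and 6.46 to 58.4 in the knockdown libraries, so the groups overlapped. All 3 were lower in the knockdown axons, where 41.3% of all genes were higher. None passed, where 0.401% of all genes did. Snhg6 differed by -0.32 ± 0.80, Snhg5 by -0.32 ± 0.66 and Snhg12 as above. Of a wider list of 20 snoRNA host genes, 10 were in the tables and 9 could be tested in axons. Of those 9, 0 passed the adjusted threshold, beside 0.401% of all genes.

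The 3 members that the newer annotation calls coding were lower in axons in both conditions, where 48.3% (control) and 46.5% (knockdown) of all genes were higher. None of the 3 passed, beside 2.10% and 5.35% of all genes. 6330403K07Rik was at 47.2, 33.4, 53.9 and 52.7 FPKM in the somatodendritic and 23.1, 1.69, 23.4 and 38.5 in the axonal controls (-1.03 ± 0.59, limma, adjusted p = 0.42). Tunar was at 6.69 to 22.1 FPKM in the somatodendritic and 0 to 18.4 in the axonal knockdown libraries (-1.26 ± 0.52, adjusted p = 0.168). Mtln was at 11.6, 5.67, 15.6 and 16 FPKM in the somatodendritic and 0, 6.31, 10.3 and 13.1 in the axonal controls (-0.67 ± 0.82, adjusted p = 0.769).

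Gm26821 is among the 14 members that overlap coding genes, and its 2652 exonic bases all lie within exons of Nova2 on the other strand. Nova2, a neuronal splicing regulator, was at 16.2, 24.4, 25.1 and 21.2 FPKM in the somatodendritic controls, where Gm26821 had 15.6, 25.5, 25.7 and 22.7. In somatodendritic knockdown replicates 1 to 6 Nova2 was at 43.9, 35.1, 38.4, 43.6, 37.1 and 20.7 FPKM and Gm26821 at 28.7, 49.5, 31.6, 48.7, 45.0 and 39.9. In the axonal controls Nova2 was at 6.91, 5.93, 5.63 and 9.72 FPKM and Gm26821 at 4.45, 3.81, 11.6 and 6.89. The values of the pair lay close together in the somatodendritic controls and further apart in several libraries of the other groups. The knockdown difference of Nova2 in cell bodies was 0.50 ± 0.22 (limma, adjusted p = 0.344), beside 0.62 ± 0.22 for Gm26821. Reads from Nova2 and from Gm26821 cannot be told apart without strand.

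Rows that overlap another gene may share fragments with it, and the levels of such members are uncertain to that extent. Gm26951, which lies over the ribosomal protein pseudogene Rpl18-ps2, ranged from 0 to 35.4 FPKM. Gm26723 was at 54.7, 48.0, 63.2 and 16.7 FPKM in the somatodendritic controls and at 0, 10.6, 0 and 10.1 in the axonal ones (-3.34 ± 1.30, limma, adjusted p = 0.199). It spread from 0 to 79.2 FPKM in the somatodendritic knockdown libraries.

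**Figure D5:**
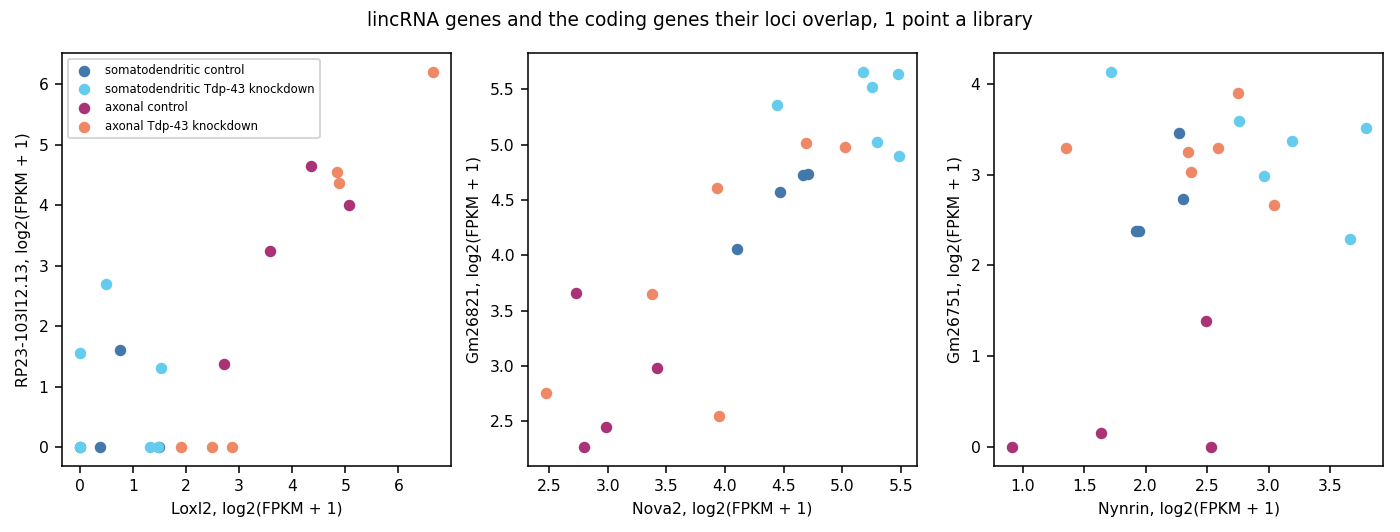
Level of 3 members (vertical) against the coding gene their locus overlaps (horizontal), both as log2(FPKM + 1), 1 point for each of the 20 libraries coloured by group. RP23-103I12.13 is high only where Loxl2 is high, Gm26821 lies at 15.6 to 25.7 FPKM in the somatodendritic controls where Nova2 lies at 16.2 to 25.1, and Gm26751 is at most 1.62 FPKM in the axonal controls.

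Further lncRNAs of known interest were taken from lists of neural or widely studied genes. Of 27 listed, 14 were in the tables and 10 could be tested in the axonal and compartment comparisons. Rmst, between the compartments of the knockdown cultures, was the only one that passed in any of the 5 comparisons. In that comparison 5.35% of all genes passed, 2.93% higher. Pvt1, the neighbour of Myc, was at 0, 0, 8.60 and 3.65 FPKM in the somatodendritic and 3.57, 9.89, 5.32 and 1.20 in the axonal controls, and Snhg5 at 14.3, 8.96, 5.58 and 5.78 and at 6.95, 11.9, 15.7 and 5.26. The axonal range of each overlapped the somatodendritic range.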

How the data were processed

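RNA of 20 libraries from cultured motoneurons was measured by RNA-seq after amplification. The deposited tables hold FPKM per gene, 1 library a table, computed by the authors from trimmed reads mapped to GRCm38 with STAR, with Cufflinks 2.2.1 and FastQC 0.10.1 according to the submitters' processing notes; the annotation release is not given in the sources used here. Libraries were grouped by their labels. FPKM were scaled by median ratios over genes at 1 FPKM or more in every library (over the compartment's libraries for knockdown against control, over all 20 otherwise and for the scaled sums), genes averaging under 1 FPKM were dropped, and log2(FPKM + 1) was tested with limma 3.58.1 in R 4.3.3 (trend, Benjamini-Hochberg over all genes): knockdown against control within a compartment, compartments and the interaction in 1 fit of 4 groups. Relative depth came from the confidence limits (the upper limit taken as 2 SD above the estimate, the squared ratio of FPKM to SD taken as a fragment number only for genes where it was whole, within 0.02, in every library), in place of counts, which are not in the tables. FPKM carry no counts, so no count model was used. The knockdown fits were tested on simulated data with a fixed spread, which was not taken from these libraries. Changes of 4-fold were called for 7.95% (somatodendritic) and 3.23% (axonal) of the changed genes, and changes of 8-fold for 37.8% and 31.0%. Of the unchanged genes 0.0526% and 0.0454% were called. A result of 0 calls thus leaves room for changes of this size.

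Named genes were the 10 members of highest mean, up to 6 members a direction past the threshold in each comparison (or the 3 of lowest p where fewer passed), and members on lists of known lncRNAs. The members and lists were chosen with earlier results of these data known. Annotation and transcripts were from GENCODE M21, miRNA sequences from RefSeq. Alternatives covered scaling, pseudocount, filter, weights, other sets of libraries, a replicate block and leaving out each library. The result of 1 overlapping pair of genes is not reported here.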

Additional observations from a re-analysis of the deposited data

Results flagged for a closer look

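Of 104 groups of 4 or 6 libraries examined for the 26 named members, 18 (17.3%) had a library far from the rest by Dixon's test at the 95% level, where chance marks about 1 in 20 if values are normally distributed, and in 17 of the 18 that library was the highest. In 5 of the 18 all other libraries of the group were at 0, where any detection is marked. Axonal control replicate 4 stood above the other axonal controls for Gm26870 (27.7 FPKM, median of the others 3.46), 1700020I14Rik (21.5, others 5.78), Gm26871 (3.74, others at 0) and Gm26751 (1.62, others at a median of 0). Axonal control replicate 3 did so for 1500016L03Rik (11.8 FPKM) and Gm12371 (1.88), and replicate 2 for Gm2694 (11.3), with the other axonal controls at a median of 0 each.

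In the axonal knockdown libraries the high values were 72.8 FPKM of RP23-103I12.13 in replicate 1, 75.1 of 1500016L03Rik in replicate 2, 61.2 of Gm26871 in replicate 4, 28.9 of AI854517 in replicate 5 and 41.6 of Snhg6 in replicate 6. In the somatodendritic controls they were 2.04 FPKM of RP23-103I12.13 in replicate 3, and 15.2 of H19 and 31.8 of 1700020I14Rik in replicate 4. In the somatodendritic knockdown libraries, replicate 2 was high for Gm26870 (41.8 FPKM) and RP23-103I12.13 (5.49), and replicate 6, of relative depth 0.144, was low for Gm27031 (22.4 FPKM, median of the others 44.0).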

How the results depend on the processing

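Of 803 recomputed log2 differences of the 30 named ones, 712 kept direction and side of the threshold, 59 lost a call, 32 gained one and 0 reversed. The causes of the changes were not tested. For knockdown in the somatodendritic compartment (0 calls in each setting, 8 members at an unadjusted p under 0.05), the 8 became 4 on deposited FPKM, 5 with a pseudocount of 0.1, 4 with no filter on low values and 2 with all 20 libraries fitted. For knockdown in axons the 0 calls became 1, Gm26751, on deposited FPKM, with array weights and with all 20 libraries. For the control compartments the 2 calls became 1 with a pseudocount of 0.1, 1 with a pseudocount of 5, 1 with no filter, 7 with array weights and 6 with the control libraries alone. For the knockdown compartments the 2 calls became 0 with a pseudocount of 0.1, 0 with no filter, 1 (Gm27031) with array weights and 0 with the knockdown libraries alone, and on deposited FPKM they were 3, none of them among the 2. The interaction's 5 became 3 with a pseudocount of 0.1. Chosen after seeing the data, leaving out the libraries of relative depth under 0.3 or under 0.5 gave 3 and 6 calls for the control compartments, 0 and 0 for the knockdown compartments, and 12 members at an unadjusted p under 0.05 for somatodendritic knockdown in either case.

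Leaving out 1 library at a time gave 0 calls for somatodendritic knockdown, 0 to 1 for axonal knockdown, 0 to 2 and 0 to 6 for the control and knockdown compartments and 0 for the interaction. At an unadjusted p under 0.05 the ranges were 3 to 8, 5 to 10, 7 to 13, 10 to 12 and 2 to 6 in that order.

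The labels share replicate numbers but name no culture, and deviations of same-numbered libraries correlated from -0.0356 to 0.0714. Such values cannot exclude a pairing, since differently numbered libraries were not compared. The main fits used no pairing. With the replicate block the calls became 0 for the control compartments and 1 for the knockdown compartments, and stayed 0 elsewhere.

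Depth and precision limit all of this: 3 of the 20 libraries had a relative depth under 0.3, and 99 of the 760 member values were at 0.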
